A study of Mus musculus with 12 samples.

Results

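The genes described here encode growth factors that build and maintain blood and lymphatic vessels, with a co-receptor and an oxygen-regulated transcription factor that belong to the same pathway. They were chosen by name as 10 genes of the 37991 in the gene count table: the VEGF family ligands Vegfa, Vegfb, Vegfc and Pgf, the angiopoietins Angpt1 and Angpt2, the angiopoietin-like genes Angptl2 and Angptl4, the VEGF and semaphorin co-receptor Nrp1, and Hif1a. RNA from isolated pancreatic islets of male mice was sequenced in 4 groups of 3 libraries. Tg7 mice, which overexpress the microRNA miR-7 in β-cells on a C57BL/6 background, were compared with their wild-type (Wt) littermates at 2 weeks (2w) and at 12 weeks (12w) of age, and no other allele or treatment was given for any group. Each library came from a pool of at least 3 animals, so 3 libraries measure the spread between pools and not between single mice. Tg7 is 1 transgenic line, and the sources used here do not name the promoter of its transgene. The study's text describes the mutants as still normoglycaemic at the younger age and hyperglycaemic at the older one.

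Islets are among the most densely vascularised tissues, and β-cells release VEGF-A, which signals through the receptor VEGFR2 (Kdr) on endothelial cells to keep the islet capillaries dense and fenestrated. VEGF-B and placental growth factor (Pgf) bind VEGFR1 (Flt1), which otherwise holds VEGF-A, and VEGF-C acts mainly on VEGFR3 (Flt4) of lymphatic vessels. Angiopoietin 1 is the activating ligand of the receptor Tie2 (Tek) and comes largely from cells around the vessel, whereas endothelial cells release angiopoietin 2, which mostly opposes it. Low oxygen stabilises the protein of Hif1a, which switches on Vegfa, Pgf and Angptl4 among others, so its mRNA level does not report its activity.

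The islet identity of the libraries was clear. The insulin gene Ins2 had a mean normalised read count of 99471 CPM (counts per 1e6 counts of the library) and the glucagon gene Gcg one of 40439 CPM, while 8 acinar markers summed to between 9.55 and 26.5 CPM in any library. Library totals ran from 11610697 to 17515758 counts. The 3 Wt libraries at 12w had TMM scaling factors of 0.684 to 0.871 against 0.968 to 1.19 in the other 9, and replicate 1 of that group was the shallowest library. The summed level of 10 β-cell markers was between 111105 and 180817 CPM in Wt and 27692 and 52782 CPM in Tg7 at 2w, and between 199077 and 482566 CPM in Wt and 100469 and 105812 CPM in Tg7 at 12w. The transgene itself cannot be followed in these libraries, since mature microRNAs are not captured, and the hairpin genes Mir7-1, Mir7-2 and Mir7b had 0 to 30 counts per library, with ranges that overlapped between the genotypes at both ages.

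The sequence of the microRNA that the mutants overexpress is shown with its seed (bases 2 to 8) in capitals, because a direct target would carry the complement of those bases. It is the mature mouse sequence of the RefSeq table, at chr7:78888295-78888317 on the plus strand of GRCm38.p6.
mmu-miR-7a-5p: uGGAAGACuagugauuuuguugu

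The 3′ untranslated regions (UTRs) of the 10 genes were searched on the transcribed strand for GTCTTCC, the complement of the seed, and for TCTTCCA, the complement of bases 2 to 7 followed by A. These letters occurred in 2 of the 10 genes, Angptl2 and Angptl4. Of 20007 protein-coding genes with an annotated 3′ UTR, 12.2% held the first word and 16.8% the second. The matches are printed with the matching bases in capitals, in the mm9 build (NCBIM37) that the count table uses. The first lies at chr2:33102018-33102024 on the plus strand and also has the A after the seed match. The other 2 lie at chr17:33911603-33911609 and chr17:33915400-33915406 on the minus strand, the last in only 1 of the annotated transcripts of Angptl4.
Angptl2, 3′ UTR: agaactgcagaGTCTTCCaatcagttaag
Angptl4, 3′ UTR, first match: ggaacattcgtTCTTCCAgagggcctggg
Angptl4, 3′ UTR, second match: ctgccaggaacTCTTCCAagaaggggagc

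The levels of Angptl2 and Angptl4 in Tg7 islets are given below, and neither gene with a match was lower in Tg7 than in Wt. A match to these letters is a description of the sequence and does not show binding.

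Differences were tested with edgeR's quasi-likelihood test, with Benjamini-Hochberg adjustment over 15961 tested genes and a threshold of 0.05, and log2 fold changes are given with their standard error (SE). At 2w, 2 of the 10 genes passed the test, Pgf and Vegfc, both higher in Tg7, where 10.6% of all tested genes passed in either direction and 6.07% passed as higher. At 12w 2 of the 10 passed, Pgf and Angptl2, again both higher in Tg7, where 23.6% of all tested genes passed and 12.5% passed as higher. None of the 10 passed as lower in edgeR at either age, against 4.55% of all genes at 2w and 11.2% at 12w, although 6 of the 10 at 2w and 7 at 12w had an unadjusted p under 0.05 in either direction, and DESeq2 called 2 lower at 12w, Vegfa and Angpt2. The median log2 fold change of the 10 genes was 0.37 at 2w and 0.45 at 12w, beside 0.03 and -0.01 over all tested genes. Without overlap between the genotypes, 4 of the 10 genes were higher and 1 lower in Tg7 at 2w (17.8% and 18.1% of all tested genes), and 3 were higher and 1 lower at 12w (20.7% and 16.3%). Calls of 2-fold or more upwards made up 3.63% of all tested genes at 2w, where they included Pgf and Vegfc, and 7.41% at 12w, where they included Pgf and Angptl2. All but Angpt1 were over the count filter in all 12 libraries. Angpt1 was over it in 6, namely 1 Wt and 2 Tg7 libraries at 2w, and 0 Wt and 3 Tg7 libraries at 12w.

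**Figure D1:**
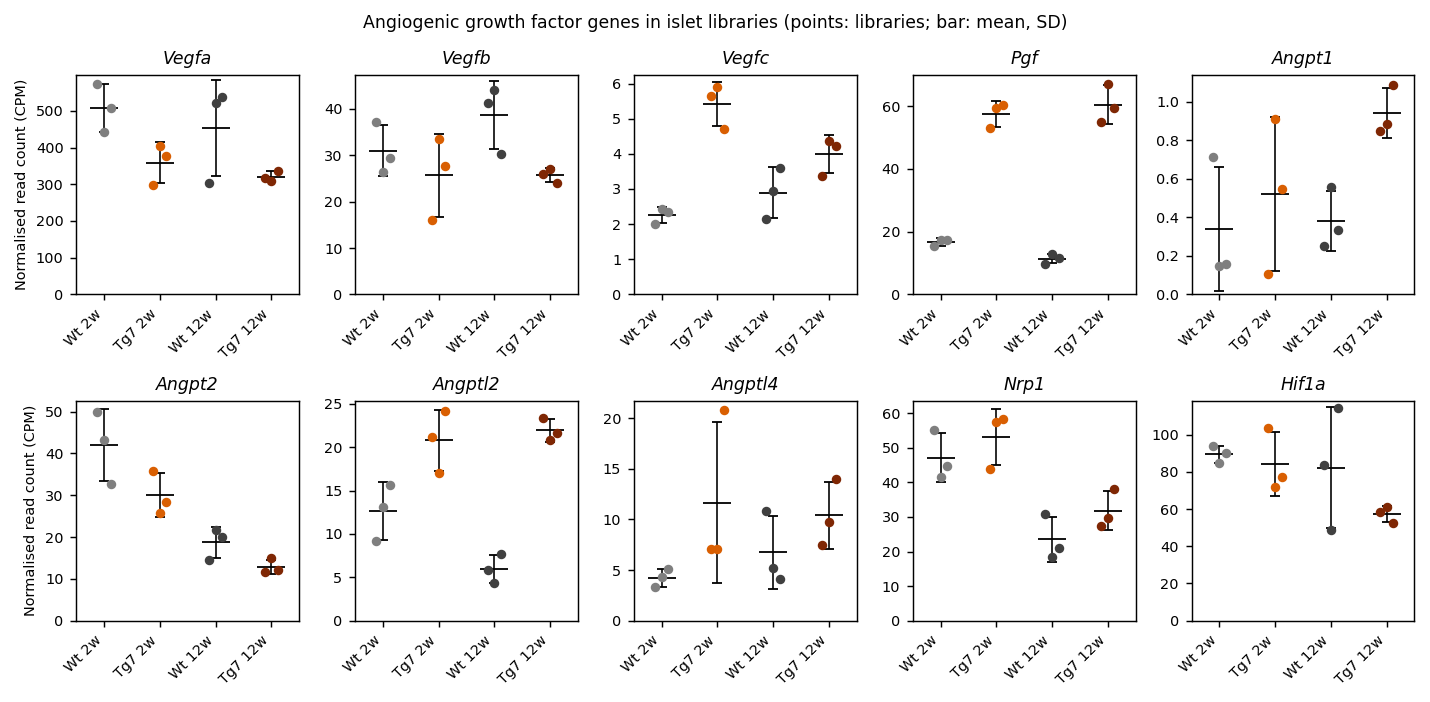
Normalised read count in CPM (y axis, linear, from 0, a separate scale for each gene) of the 10 angiogenic growth factor genes in the 4 groups (x axis). Points are libraries, the long bar is the mean of 3 and the error bar the SD; the Tg7 points of Pgf lie between 52.9 and 67.2 CPM and the Wt points between 9.83 and 17.4 CPM.

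Pgf, a VEGF family ligand that binds VEGFR1 and is best known from placenta and from vessel growth in disease, had the largest fold change of the 10 genes at both ages. The gene (ENSMUSG00000004791) lies at chr12:86507589-86518246 on the minus strand. At 2w it stood at 15.3, 17.4 and 17.3 CPM in the 3 Wt libraries and at 52.9, 59.3 and 60.4 CPM in the Tg7 libraries. At 12w it stood at 9.83, 12.9 and 11.6 CPM in Wt and at 54.9, 67.2 and 59.3 CPM in Tg7. Every Tg7 library was thus far above every Wt library at both ages, and the ranges did not approach each other. Pgf was 3.45-fold higher at 2w (log2 fold change 1.79, SE 0.14, adjusted p = 5.56e-06) and 5.26-fold higher at 12w (2.40, SE 0.14, adjusted p = 1.55e-07). Ordered by p-value it was number 9 of all tested genes at 2w and number 12 at 12w. Under every alternative normalisation, filter and tool, and without any 1 library, Pgf passed the test at both ages.

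Vegfc encodes VEGF-C, the main growth factor of lymphatic vessels. It lies at chr8:55162886-55271808 on the plus strand (ENSMUSG00000031520) and was expressed at a low level, with 17 to 106 counts per library. At 2w it measured 2.02, 2.43 and 2.34 CPM in Wt and 5.66, 5.91 and 4.72 CPM in Tg7, with no overlap. At 12w it measured 2.14, 2.94 and 3.60 CPM in Wt and 3.38, 4.37 and 4.23 CPM in Tg7, where the lowest Tg7 library fell inside the Wt range. Vegfc was 2.39-fold higher in Tg7 at 2w (log2 fold change 1.26, SE 0.28, adjusted p = 0.0104), and at 12w the log2 fold change was 0.45 (SE 0.28, adjusted p = 0.275). With library size alone the 12w value was 0.87 and passed (adjusted p = 0.0419). The call at 2w was lost without replicate 1 of the Wt libraries, where the log2 fold change was 1.18 with an adjusted p of 0.0520. In that fit the called genes fell from 1695 to 912 over all tested genes. Leaving out any 1 library kept the 2w log2 fold change of Vegfc between 1.18 and 1.34. The summed level of 5 lymphatic endothelial markers was 135 to 152 CPM in Wt and 125 to 169 CPM in Tg7 at 2w. That sum is largely the level of 1 gene, Prox1, with a mean of 81.3 CPM over all libraries. Flt4 had 23.2 CPM and Lyve1 10.1 CPM. Of the 4 markers tested, 1 was called higher and 1 lower at 2w, so the sum does not describe them all.

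Vegfa, the principal vessel growth factor of islets, had the highest level of the 10 genes and did not pass the test at either age. It lies at chr17:46153942-46169326 on the minus strand (ENSMUSG00000023951). At 2w the Wt libraries measured 573, 443 and 508 CPM and the Tg7 libraries 297, 404 and 377 CPM. All 3 Tg7 libraries were below all 3 Wt libraries. At 12w the Wt libraries measured 303, 521 and 538 CPM and the Tg7 libraries 318, 308 and 337 CPM, and the groups overlapped because replicate 1 of Wt was as low as the mutants. The log2 fold change was -0.50 at both ages, with an SE of 0.19 at each (adjusted p = 0.114 for the younger and 0.0790 for the older mice). Without replicate 1 of Wt at 12w it was -0.75 and passed (adjusted p = 0.00303). Without replicate 4 of Wt it was -0.36 and with library size alone -0.086, and neither passed. DESeq2 called Vegfa lower at 12w (adjusted p = 0.0455), and a fit of the 2w libraries alone called it at that age (adjusted p = 0.0441).

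Vegfb, a second ligand of VEGFR1, lies at chr19:7056963-7062141 on the minus strand (ENSMUSG00000024962). It measured 37.1, 26.4 and 29.5 CPM in Wt and 16, 33.4 and 27.7 CPM in Tg7 at 2w, which overlapped. At 12w it measured 41.3, 44.1 and 30.3 CPM in Wt and 25.9, 27.1 and 24.0 CPM in Tg7. The 12w mutants were all below the controls, but the difference did not pass the test (log2 fold change -0.58, SE 0.23, adjusted p = 0.0856; at 2w -0.27, SE 0.23, adjusted p = 0.490). Vegfb passed at 12w when only those 2 groups were fitted (adjusted p = 0.0451) and without replicate 4 of Wt (-0.73, adjusted p = 0.0366), while with library size alone it was -0.13 (adjusted p = 0.674).

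Angpt2, the angiopoietin that endothelial cells store and release, lies at chr8:18690263-18741562 on the minus strand (ENSMUSG00000031465). Its 2w level was 49.96, 43.2 and 32.8 CPM in Wt and 35.9, 25.8 and 28.4 CPM in Tg7, and at 12w 14.6, 21.7 and 20.1 CPM in Wt and 11.7, 14.9 and 12.0 CPM in Tg7. The 2 genotypes overlapped at each age by 1 library, while the ages did not overlap within either genotype. In the younger mutants the log2 fold change was -0.48 (SE 0.19, adjusted p = 0.126), and in the older -0.55 (SE 0.20, adjusted p = 0.0620). At 12w Angpt2 passed in DESeq2 (adjusted p = 0.0482) and without replicate 1 of Wt (-0.72, adjusted p = 0.0231), while with library size alone it was -0.12 (adjusted p = 0.703).

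Angpt1, at chr15:42256273-42508523 on the minus strand (ENSMUSG00000022309), was near the limit of detection. Its counts were 12, 2 and 3 in Wt and 2, 14 and 11 in Tg7 at 2w, and 2, 7 and 5 in Wt and 15, 16 and 19 in Tg7 at 12w. In CPM the 12w Tg7 libraries reached 0.846 to 1.09, above the Wt range of 0.252 to 0.556, and the log2 fold change was 1.26 with an SE of 0.77 (adjusted p = 0.269). A difference in Angpt1 was not detectable at this depth. An exon of Angpt1 overlaps Gm17473 on the other strand by 283 bases, and reads there cannot be assigned with certainty, because the sources do not say whether reads were counted by strand. A further angiopoietin, Angpt4, was filtered out of the test, with a sum of 10 counts in Tg7 against 0 in Wt at 2w and 18 against 1 at 12w. The Tg7 libraries had 0, 1 and 9 counts at 2w and 5, 0 and 13 at 12w. Both sums thus came mostly from replicate 3, and no fold change is given.

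Angptl2 encodes a secreted protein of inflamed and fibrotic tissue that does not bind Tie receptors. It lies at chr2:33071589-33103237 on the plus strand (ENSMUSG00000004105). At 2w it measured 9.14, 13.1 and 15.7 CPM in Wt and 21.2, 17.1 and 24.1 CPM in Tg7. At 12w it measured 5.80, 4.37 and 7.67 CPM in Wt and 23.4, 20.8 and 21.7 CPM in Tg7. The Tg7 libraries were above the Wt libraries at both ages, by a narrow gap at 2w and a wide one at 12w. Angptl2 was 3.67-fold higher at 12w (log2 fold change 1.88, SE 0.24, adjusted p = 9.26e-05), a call that every alternative and every left-out library kept. At 2w it was just short of the threshold (0.72, SE 0.22, adjusted p = 0.0558), and DESeq2 called it there (adjusted p = 0.0248).

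Angptl4 encodes an inhibitor of lipoprotein lipase that both low oxygen and fatty acids, through PPAR receptors, are known to induce. It lies at chr17:33910695-33918520 on the minus strand (ENSMUSG00000002289). In 2w islets it measured 3.32, 4.27 and 5.05 CPM in Wt and 7.04, 7.08 and 20.8 CPM in Tg7. At 12w it measured 10.8, 5.24 and 4.13 CPM in Wt and 7.44, 9.74 and 14.0 CPM in Tg7. The mutants were all higher at 2w, with replicate 3 far above the other two, and the groups overlapped at 12w. The log2 fold change of 1.47 at 2w was just short of the threshold (SE 0.45, adjusted p = 0.0516), and that at 12w was 0.65 (SE 0.45, adjusted p = 0.327). Without replicate 3 of Tg7 the 2w value was 0.73, and without replicate 1 it was 1.74 and passed (adjusted p = 0.0293), as it did without replicate 2 (1.72, adjusted p = 0.0398) and in DESeq2 (adjusted p = 0.0102).

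Nrp1 encodes neuropilin 1, which presents VEGF-A to VEGFR2 on endothelial cells. It lies at chr8:130882973-131029362 on the plus strand (ENSMUSG00000025810), and 80 bases of its exons also hold Mir1903. The 2w libraries measured 55.2, 41.7 and 44.7 CPM in Wt and 43.8, 57.5 and 58.3 CPM in Tg7, and at 12w 31.0, 18.5 and 21.1 CPM in Wt and 27.3, 29.8 and 38.1 CPM in Tg7. The genotypes overlapped at both ages. Its log2 fold change was 0.17 in the younger mutants (SE 0.20, adjusted p = 0.623), and in the older 0.44 (SE 0.20, adjusted p = 0.133). At 12w it passed without replicate 1 of Wt (0.66, adjusted p = 0.0254) and with library size alone in place of TMM factors (0.91, adjusted p = 0.00191).

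Hif1a lies at chr12:75002362-75048517 on the plus strand (ENSMUSG00000021109), where 330 bases of exon overlap Gm15283 on the other strand. At 2w it measured 93.7, 84.5 and 90.0 CPM in Wt and 104, 71.7 and 77.2 CPM in Tg7. At 12w it measured 83.6, 48.9 and 114 CPM in Wt and 58.2, 61.0 and 52.7 CPM in Tg7. The genotypes overlapped at both ages, and the 3 Wt libraries at 12w were the most widely spread. The log2 fold change was -0.09 at 2w (SE 0.23, adjusted p = 0.849), which turned positive (0.09) with library size alone, and -0.52 at 12w (SE 0.23, adjusted p = 0.122). The 12w value moved with single Wt libraries, to -0.79 without replicate 2, where it passed (adjusted p = 0.00532), and to -0.20 without replicate 4, where it did not. With library size alone it was -0.091.

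**Figure D2:**
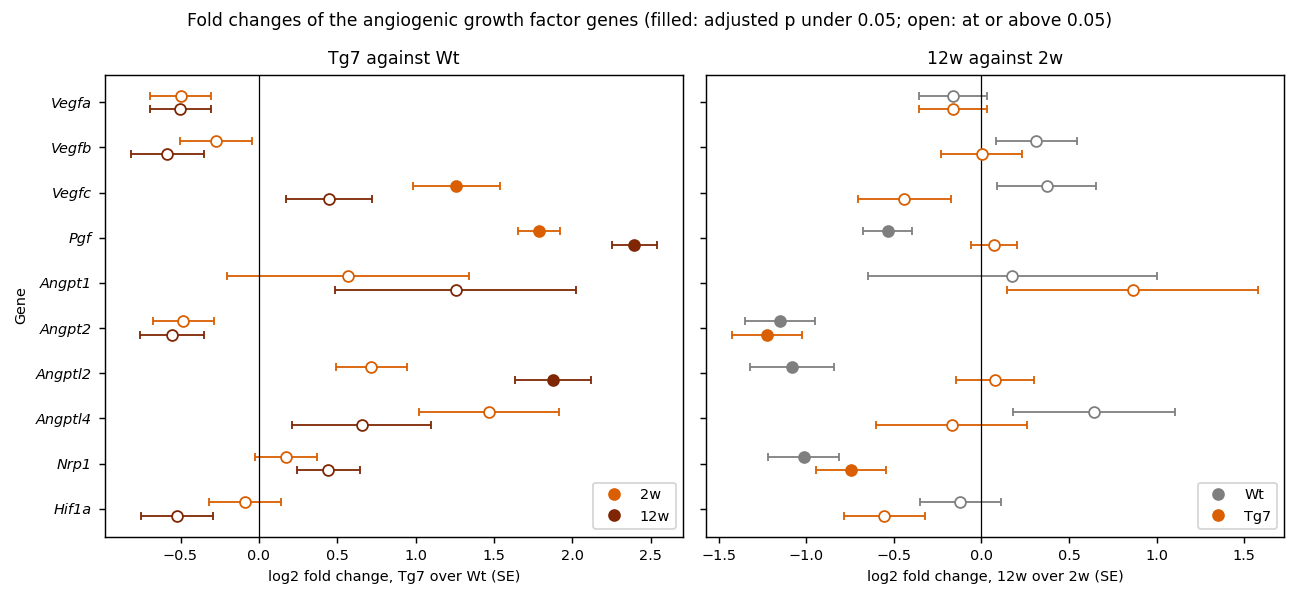
Log2 fold changes (x axis) of the 10 genes (y axis) in Tg7 over Wt at each age (left) and in 12w over 2w for each genotype (right). Points are edgeR estimates, bars the SE, and filled points passed at an adjusted p under 0.05; on the left Pgf at both ages, Vegfc at 2w and Angptl2 at 12w are filled, and on the right Angpt2 and Nrp1 in both genotypes with Pgf and Angptl2 in Wt.

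Whether the effect of Tg7 differed between the ages was tested as an interaction, for which 1.18% of all tested genes passed, 0.871% with a larger and 0.307% with a smaller value at 12w. None of the 10 genes passed in edgeR. With an unadjusted p under 0.05 there were 2, Angptl2 (effect larger at 12w by 1.16 on the log2 scale, SE 0.33, adjusted p = 0.115) and Pgf (larger by 0.61, SE 0.19, adjusted p = 0.159). Ordered by p-value they were number 446 and number 669 of all tested genes. DESeq2 called 1 of the 10, Angptl2 (adjusted p = 0.0368), and edgeR called it without replicate 4 of Wt at 12w (1.42, adjusted p = 0.0260). For Vegfc the effect was smaller at 12w by a value that did not pass (-0.81, SE 0.39, adjusted p = 0.361). A larger effect at 12w is therefore not shown for Pgf, nor an effect on Vegfc limited to 2w.

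The same 4 groups gave the change with age in each genotype, so each age comparison shares its libraries with the genotype comparisons above. In Wt islets 4 of the 10 genes fell between 2w and 12w, where 7.91% of all tested genes fell, 7.9% rose and 15.8% passed in either direction. Angpt2 fell by 1.15 on the log2 scale (SE 0.20, adjusted p = 0.00168), Angptl2 by 1.08 (SE 0.24, adjusted p = 0.00777), Nrp1 by 1.02 (SE 0.20, adjusted p = 0.00421) and Pgf by 0.54 (SE 0.14, adjusted p = 0.0191). In all 4 every 12w library was below every 2w library, as was so for 15.6% of all tested genes. The fall of Pgf was the least secure, since it did not pass without replicate 2 (adjusted p = 0.0742) or replicate 3 (adjusted p = 0.0750) of Wt at 2w, without replicate 1 at 12w (adjusted p = 0.0606), or when only those 2 groups were fitted (adjusted p = 0.0949). The other 6 genes moved by between -0.16 (Vegfa, adjusted p = 0.605) and 0.64 (Angptl4) and did not pass.

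In Tg7 islets 2 of the 10 genes fell with age, where 6.01% of all tested genes fell, 7.02% rose and 13% passed in either direction. Angpt2 fell by 1.22 on the log2 scale (SE 0.20, adjusted p = 0.00124) and Nrp1 by 0.74 (SE 0.20, adjusted p = 0.0235). The fall of Nrp1 did not pass without replicate 2 (adjusted p = 0.0731) or 3 (adjusted p = 0.0842) of Tg7 at 2w, nor without replicate 1 (adjusted p = 0.119) or 2 (adjusted p = 0.0964) at 12w. For Pgf (0.07, adjusted p = 0.759) and Angptl2 (0.08, adjusted p = 0.855), the genes that fell in Wt, the change with age in Tg7 was small, and the difference between the genotypes is the interaction above, which did not pass. Vegfc (-0.44, adjusted p = 0.309) and Hif1a (-0.55, adjusted p = 0.135) were lower in all 12w Tg7 libraries than in all 2w ones without passing the test. Hif1a passed when only those 2 groups were fitted (adjusted p = 0.0202). Of all tested genes, 19.2% were lower without overlap in that comparison.

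Levels were compared between genes only after division by exon length, in CPM per kilobase (kb). Vegfa was first in all 4 groups, at 118, 83.7, 106 and 74.8 CPM per kb in Wt and Tg7 at 2w and Wt and Tg7 at 12w. Pgf stood at 10.5 CPM per kb in Wt at 2w, where its libraries overlapped those of Angpt2 at 11.4, and at 7.23 in Wt at 12w, behind Vegfa, Vegfb and Hif1a. In Tg7 it was second at both ages, at 36.4 and 38.2 CPM per kb, and its libraries did not overlap those of Vegfb, which followed at 16 in each. Vegfc, Angptl2 and Angptl4 stood between 0.946 and 3.54 CPM per kb and Angpt1 lowest in every group, between 0.0798 and 0.221 CPM per kb. Within each group Vegfc, Angptl2 and Angptl4 overlapped with their neighbours among these genes, and in Tg7 at 12w Angpt2 (3.49) stood among them. Nrp1 was above Angpt2 in Tg7, overlapping it at 2w (9.01 and 8.14) and apart from it at 12w (5.38 and 3.49), and below it in Wt, with overlapping libraries.

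**Figure D3:**
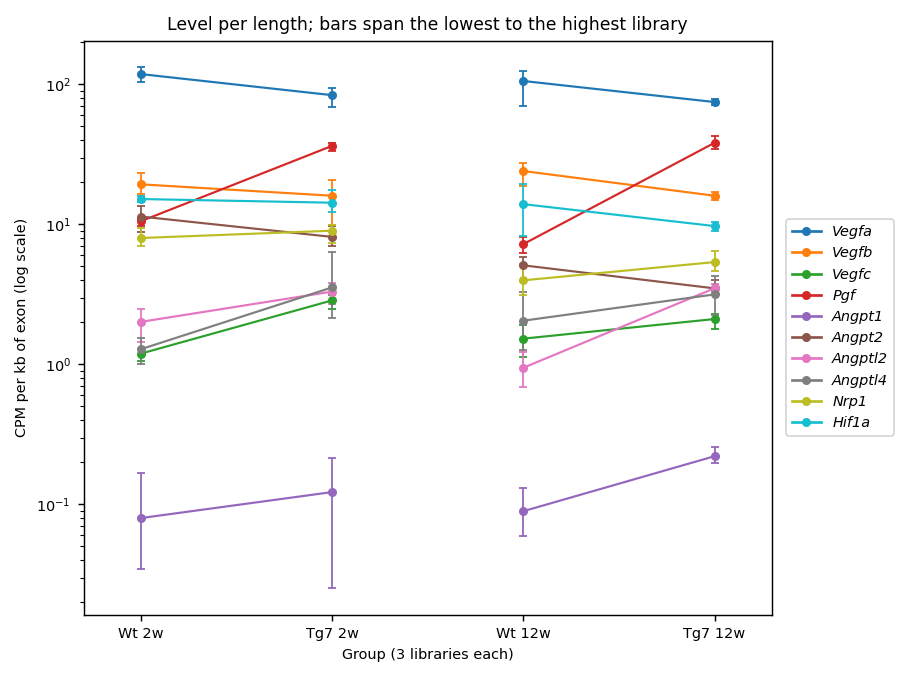
Level in CPM per kb of exon (y axis, log scale) of the 10 genes in the 4 groups of 3 libraries (x axis). Points are means and bars span the lowest to the highest library; Pgf moves from 10.5 to 36.4 CPM per kb at 2w and from 7.23 to 38.2 at 12w, from below Vegfb to above it.

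Ratios within a library do not depend on the scaling between libraries. They were chosen after the values above had been seen and are compared with an exact two-sided permutation test, whose smallest p with 3 libraries against 3 is 0.1, so none could pass 0.05. Of the summed level per length of the 5 VEGF family ligands (Vegfa, Vegfb, Vegfc, Vegfd and Pgf), Pgf made up 7.13% ± 1.28 (SD, n = 3) in Wt and 26.3% ± 2.42 in Tg7 at 2w, and 5.29% ± 0.610 and 29.0% ± 2.37 at 12w. The share of Vegfa was 79.0% in Wt and 59.9% in Tg7 at 2w, and 75.2% and 56.8% at 12w. For both shares the genotypes did not overlap at either age (exact permutation p = 0.1 each). Pgf is part of the summed level, so a larger Pgf share by itself lowers the Vegfa share, and the shares are not separate results. Pgf had 0.0904 counts per length for each of Vegfa in Wt and 0.439 in Tg7 at 2w, and 0.0712 and 0.513 at 12w.

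Endothelial and perivascular markers also differed between the groups. The summed level of 20 endothelial markers was 1385 to 1741 CPM in Wt and 1569 to 1680 CPM in Tg7 at 2w, and 589.5 to 721 CPM in Wt and 1185 to 1237 CPM in Tg7 at 12w. None of the 20 passed the edgeR test at 2w, where 5 had an unadjusted p under 0.05 and DESeq2 called 0, though 3 were called higher without replicate 1 of Wt and 2 with library size alone. At 12w 15 of the 20 rose (median log2 fold change 0.95). The effect of Tg7 was larger at 12w than at 2w by the interaction test for 3 of the 20 endothelial markers and 5 of the 14 markers that follow. The summed level of 14 markers of pericytes, stellate cells and fibroblasts was 405 to 571 CPM in Wt and 606 to 772 CPM in Tg7 at 2w, and 104 to 175 and 429 to 459 CPM at 12w. Of those 14, 6 rose at 2w and 12 at 12w (median log2 fold change 0.32 and 1.65), and the count at 2w was 1 without replicate 3 of Wt and 3 without replicate 1 of Tg7. In Wt islets 18 of the 20 endothelial and 11 of the 14 perivascular markers fell between 2w and 12w. Of all tested genes, 6.07% were called higher in Tg7 at 2w and 12.5% at 12w. The effect was larger at 12w for 0.871% of them, and 7.91% fell with age in Wt. In whole islets fewer cells of a type and less RNA per cell cannot be told apart. The part of these markers in the results for the 10 genes was not tested beyond the ratios that follow.

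Set against these markers within each library, the genes differed among themselves. Pgf per 1000 endothelial marker counts was 11.1 in Wt and 35.7 in Tg7 at 2w and 17.2 and 50.1 at 12w. Per 1000 pericyte, stellate and fibroblast marker counts it was 35.6 in Wt against 87.8 in Tg7 at 2w, with 84.5 against 136 at 12w, again with no overlap between genotypes (exact permutation p = 0.1). Pgf was thus higher in Tg7 also relative to both marker sums, with group means at least 1.60-fold apart. Angptl2 per 1000 endothelial marker counts was 8.53 in Wt and 13.0 in Tg7 at 2w, with overlap (exact permutation p = 0.2), whereas the 12w values of 8.94 and 18.2 did not overlap (exact permutation p = 0.1). Per 1000 pericyte, stellate and fibroblast marker counts the older islets gave 43.7 in Wt against 49.1 in Tg7 and the younger 27.6 against 31.5, and the genotypes overlapped at both ages (exact permutation p = 0.6 each). Angpt2 per 1000 endothelial marker counts was 27.5 at 2w and 28.1 at 12w in Wt (exact permutation p = 0.9), and 18.7 and 10.7 in Tg7, below Wt in every library at each age (exact permutation p = 0.1). At 2w the groups nearly touched, with 22.6 in the highest Tg7 library and 22.7 in the lowest Wt library. For Nrp1 the same ratio was 30.9 in Wt and 33.0 in Tg7 at 2w, with 36.2 and 26.4 at 12w, and the genotypes overlapped (exact permutation p = 0.5 and 0.3).

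**Figure D4:**
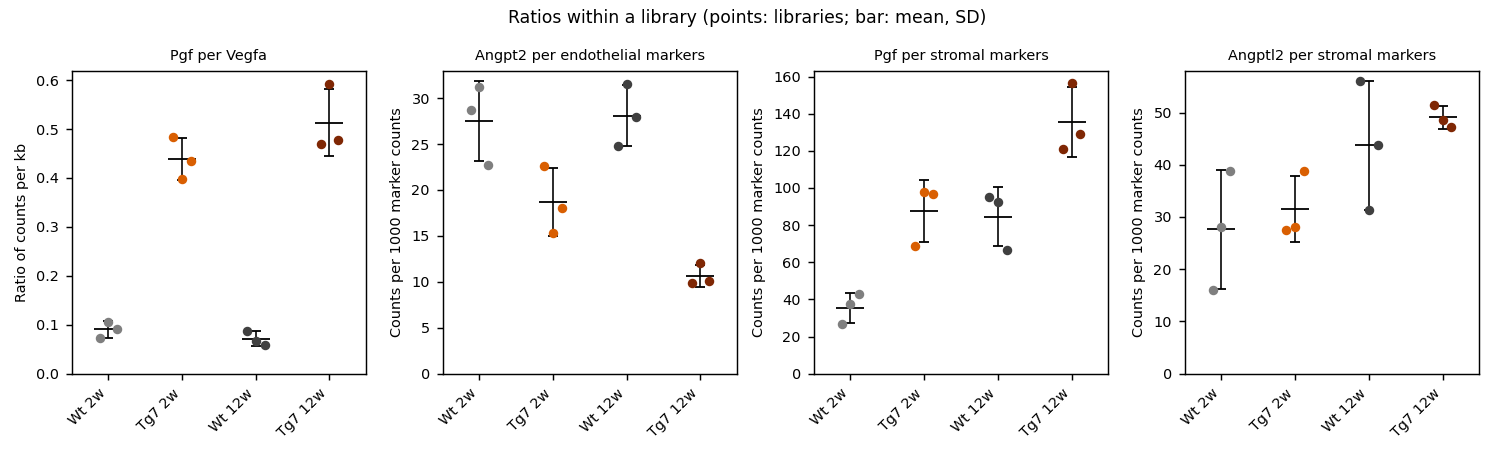
Ratios within a library (y axes, linear, from 0) in the 4 groups (x axes): Pgf per Vegfa in counts per kb, Angpt2 per 1000 endothelial marker counts, and Pgf and Angptl2 per 1000 pericyte, stellate and fibroblast ("stromal") marker counts. Points are libraries, bars the mean and SD of 3; the genotypes are apart in the first 3 panels, with Angpt2 at 10.7 in Tg7 against 28.1 in Wt at 12w, and overlap in the fourth.

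Of 14 receptors and co-receptors of VEGF, angiopoietins and semaphorins other than Nrp1, 1 rose in Tg7 at 2w and none fell (median log2 fold change 0.08), beside 6.07% and 4.55% of all tested genes, and DESeq2 called 2 higher. At 12w 9 rose and 1 fell (median 0.67), beside 12.5% and 11.2% of all tested genes. Of the 14, 5 are also on the endothelial or lymphatic marker lists, and 11 of them fell in Wt between the ages. Flt1, which encodes the receptor of Pgf and Vegfb, stood at 144, 136 and 139.6 CPM in Wt and 137, 121 and 145 CPM in Tg7 at 2w, and at 64.4, 77.0 and 92.4 CPM in Wt and 109.7, 121 and 126 CPM in Tg7 at 12w. Its genotypes overlapped at 2w and were apart at 12w (log2 fold change 0.60, SE 0.13, adjusted p = 0.00527). Kdr, the main receptor of VEGF-A, had a mean of 93.3 CPM in Wt and 152 CPM in Tg7 at 12w (0.70, SE 0.19, adjusted p = 0.0144). Tek, the angiopoietin receptor, went from 9.30 to 19.8 CPM (1.08, SE 0.19, adjusted p = 0.00105) and its partner Tie1 from 17.9 to 36.3 CPM (1.0, SE 0.20, adjusted p = 0.00234). Nrp2, the VEGF-C co-receptor, went from 12.6 to 19.7 CPM (0.64, SE 0.21, adjusted p = 0.0386), and Flt4, the VEGF-C receptor, did not pass (0.37, adjusted p = 0.140).

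None of Flt1, Kdr, Flt4, Nrp2, Tek and Tie1 passed in edgeR at 2w, with log2 fold changes from -0.10 to 0.20. The difference between the ages did not pass for any of them either, with Flt1 (0.66, adjusted p = 0.122) and Tek (0.89, adjusted p = 0.129) closest to the threshold. The receptor that rose at both ages was Itgb3, the β3 integrin subunit found on growing vessels and platelets. It measured 9.20, 7.07 and 8.99 CPM in Wt and 25.9, 17.3 and 22.1 CPM in Tg7 at 2w (log2 fold change 1.37, SE 0.20, adjusted p = 0.000873), and had means of 5.04 and 20.4 CPM at 12w (2.03, SE 0.22, adjusted p = 2.03e-05). Its partner Itgav was the receptor that fell at 12w, from 206 to 86.5 CPM (-1.25, SE 0.25, adjusted p = 0.00297). The count of 9 receptors at 12w was 5 without replicate 2 of Tg7 and 5 when only the 2 groups were fitted.

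Of 9 subunits and sensors of the HIF pathway, 1 rose and 2 fell in Tg7 at 2w, and 2 rose and 2 fell at 12w (median log2 fold change -0.05 at both ages), beside the shares of all genes given for the receptors. Epas1, which encodes HIF-2α and is a gene of endothelial cells, measured 52.7, 53.4 and 66.7 CPM in Wt and 160.3, 148 and 153 CPM in Tg7 at 12w. The groups were far apart (log2 fold change 1.41, SE 0.12, adjusted p = 3.91e-06), whereas the means at 2w were 126 and 148 CPM. Egln3, an oxygen-sensing prolyl hydroxylase that HIF itself induces, rose at both ages, from 1.53 to 4.59 CPM at 2w (1.59, SE 0.43, adjusted p = 0.0319) and from 1.57 to 8.93 CPM at 12w (2.47, SE 0.44, adjusted p = 0.00119). Arnt, the partner subunit of Hif1a, was lower at 2w (-0.43, adjusted p = 0.0390) and at 12w (-0.46, adjusted p = 0.0145). Egln1 was lower at 2w (-0.46, adjusted p = 0.0220) and Vhl, which marks HIF for degradation, at 12w (-0.43, adjusted p = 0.0456). The calls at 2w were not stable to leaving out a library. None was higher without any 1 of the Wt libraries or replicate 1 of Tg7, and 0 or 1 was lower without any 1 of the 6 libraries. The 2 lower calls at 12w became 0 or 1 without replicate 1 or 4 of Wt or any 1 of the Tg7 libraries.

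**Figure D5:**
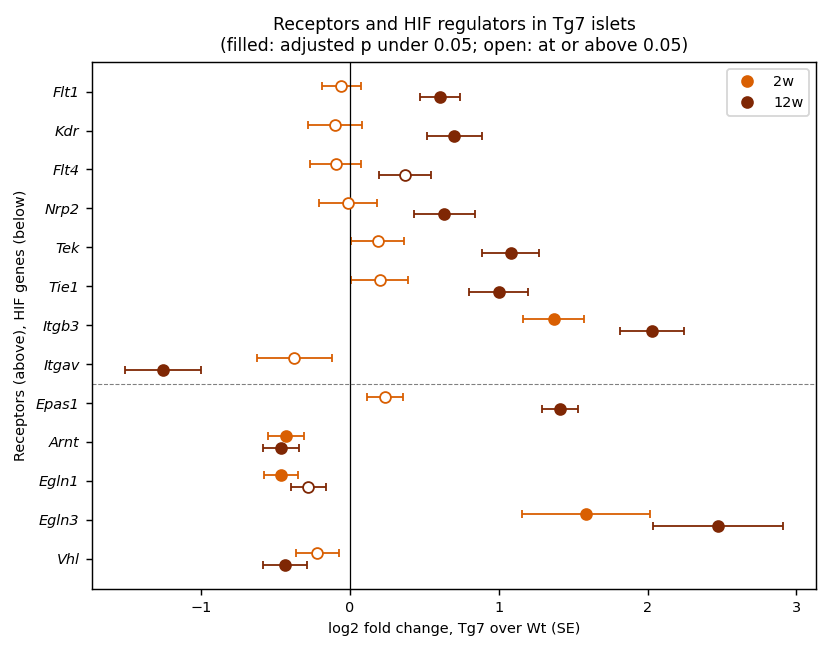
Log2 fold change in Tg7 over Wt (x axis) of 8 receptor genes (above the dashed line) and 5 HIF pathway genes (below it) at 2w and 12w. Points are edgeR estimates, bars the SE, and filled points passed at an adjusted p under 0.05; Flt1, Kdr, Nrp2, Tek and Tie1 are open near 0 at 2w and filled between 0.60 and 1.08 at 12w.

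Of 45 HIF targets other than the 10 genes, 7 rose and 3 fell at 2w, and 12 rose and 6 fell at 12w, with medians of 0.20 and 0.10. Over all tested genes 6.07% rose and 4.55% fell at 2w, and 12.5% rose and 11.2% fell at 12w. Egln1 and Egln3 are counted in this list as well as among the subunits and sensors. Stc2, a secreted glycoprotein of the stress response, had the largest change at 2w among the called genes whose groups were apart (log2 fold change 2.87, adjusted p = 0.00405). It came before Egln3, given above, Ak4, a mitochondrial adenylate kinase (1.49, adjusted p = 0.0379), and Plod2, a collagen lysyl hydroxylase (1.23, adjusted p = 0.00709). For Ak4 the Tg7 libraries measured 22.6, 24.5 and 67.5 CPM at 2w, with replicate 3 far above the others, against 11.3, 16.9 and 12.7 CPM in Wt. Its means at 12w were 24.4 CPM in Wt and 21.2 CPM in Tg7. At 12w the collagen cross-linking enzyme Lox had 41 counts in Tg7 and 0 in Wt, at least 9.11-fold higher against a floor of 3 counts over the group. The glycolytic enzyme Hk2 (2.91, adjusted p = 0.00167), Egln3, given above, and Plod2 (2.41, adjusted p = 3.09e-05) rose as well. The 7 higher calls at 2w became 3 without any 1 of the Wt libraries, and the 12 at 12w became 20 with library size alone. The lower calls became 0 or 1 at 2w without replicate 1 or 2 of Wt or replicate 3 of Tg7, and 3 at 12w without any 1 of the Tg7 libraries.

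PPAR targets were examined because Angptl4 is one of them. All 21 of the tested targets had a positive log2 fold change at 2w (median 0.56, beside 0.03 over all tested genes). Genes with shared regulators can move together, so these are not 21 separate observations. Of them 3 passed, among them Ehhadh, of peroxisomal fatty acid oxidation (log2 fold change 0.92, adjusted p = 0.0284) and the uncoupling protein Ucp2 (0.60, adjusted p = 0.0459). Ehhadh measured 24.0, 24.3 and 47.6 CPM in the Tg7 libraries at 2w, with replicate 3 far above the others. The part of that library in the values of the other targets was not tested. At 12w 6 rose and 2 fell (median 0.05), among them the fatty acid carriers Fabp4 (log2 fold change 1.10, adjusted p = 0.0463) and Slc25a20 (1.02, adjusted p = 8.77e-05), the lipid droplet protein Plin2 (0.85, adjusted p = 0.00143) and, lower, lipoprotein lipase Lpl (-0.88, adjusted p = 0.0325). The shares of all genes called were 6.07% higher at 2w, and 12.5% higher and 11.2% lower at 12w. None of the 3 calls at 2w was left without replicate 1 or 3 of Wt or replicate 3 of Tg7, and DESeq2 made 7. At 12w the higher calls became 3 without replicate 2 or 3 of Tg7, and the lower calls 0 or 1 without replicate 1 or 4 of Wt or any 1 of the Tg7 libraries.

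Of 37 other angiogenic ligands and modulators tested, 5 rose and none fell in edgeR at 2w (median 0.32; DESeq2 called 1 lower), beside 6.07% and 4.55% of all genes. At 12w 15 rose and 3 fell (median 0.56), beside 12.5% and 11.2% of all genes, and in Wt 17 of the 37 fell with age. Among those that rose at 2w were Serpinf1, which encodes the vessel inhibitor PEDF (log2 fold change 1.44, adjusted p = 0.0148), Ang, or angiogenin (1.30, adjusted p = 0.00389), and Fgf1 (1.21, adjusted p = 0.0266). At 12w the largest called changes were those of Serpinf1 (log2 fold change 2.16, adjusted p = 0.000898), the matricellular proteins Ctgf (1.99, adjusted p = 1.45e-05) and Cyr61 (1.5, adjusted p = 0.000997), and the guidance ligand Slit2 (1.79, adjusted p = 0.00249). The 5 calls at 2w fell to 2 without replicate 1 of Wt, to 3 without replicate 2 and to 1 without replicate 3, and to 1 without replicate 3 of Tg7. The 3 lower calls at 12w became 0 or 1 without replicate 1 of Wt or any 1 of the Tg7 libraries. Ang is one of a family of close paralogs, so its reads may be shared among them.

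The genes whose pattern over the 12 libraries was most like that of Pgf, by Pearson's r of log2 CPM among 15960 other genes, were D330028D13Rik (0.984), Fam18a (0.980) and Gpr179 (0.979). For Angptl2 they were Parm1 (0.977), Ptprs (0.968) and Gm15918 (0.964). For Vegfa they were Madd (0.940), Lonp1 (0.923) and Ppp6r1 (0.917), and for Vegfc Katnal2 (0.950), Lpin2 (0.939) and Ulk1 (0.927). Nrp1 was nearest to Smtn (0.963), Emcn (0.959) and Itga8 (0.954), of which Emcn is an endothelial sialomucin and Smtn a smooth muscle protein. Angptl4 was nearest to Bend5 (0.963), Me1 (0.962) and Cdo1 (0.949), where Me1 is the malic enzyme of lipid synthesis. Among the 45 pairs of the 10 genes the highest values were those of Pgf with Angptl2 (0.888) and with Vegfc (0.803), and the lowest that of Vegfb with Angptl2 (-0.762). These libraries share 4 groups, so the values describe group differences as well as the spread within groups.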

How the data were processed

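Libraries were made from islet RNA with an NEB Ultra II kit. Paired-end reads from a HiSeq2500 were trimmed by the authors with Trimmomatic and aligned to mm9 with TopHat2 (2.0.11), and featureCounts of Rsubread gave the deposited raw counts per Ensembl gene. The sources used here do not say whether counting used strand. The study names CASAVA for base calling, and the submitters' processing notes list bcl2fastq (2.20.0).

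From these counts, edgeR 4.0.16 (R 4.3.3) was run with TMM factors, filterByExpr (minimum count 10, minimum total 15), and glmQLFit and glmQLFTest in 1 model of 4 groups, which left 15961 of 37991 genes. The SE was obtained from the estimate and the F statistic. CPM values use TMM-scaled library sizes. DESeq2 1.42.0, other normalisations and filters, a fit of 2 groups, a replicate block and leaving out each of 12 libraries were alternatives. edgeR was first tested on simulated counts. Gene symbols, exon lengths and 3′ UTRs came from the GENCODE annotation of NCBIM37, in which 37205 IDs matched. The 10 genes, the gene lists and the tests were chosen with earlier results of these data known. Named genes were the 10, the receptors Flt1, Kdr, Flt4, Nrp2, Tek and Tie1, at each age the 4 called genes of each pathway list with the largest change among those whose groups did not overlap, and for likeness the 3 genes with the highest r; some named by this rule are not reported here. Replicate numbers were checked for pairing of Wt with Tg7 libraries within an age, by correlating deviations from group means (r from -0.167 to -0.0112). No such pairing was seen, and pairing across the ages was not checked. Total counts per library limit the precision of low genes such as Angpt1.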

Additional observations from a re-analysis of the deposited data

Results flagged for a closer look

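The effect of Tg7 differed between the ages for 3 genes of the pathway lists, by the interaction test in edgeR. For Ctgf the effect was larger at 12w by 1.84 on the log2 scale (SE 0.27, adjusted p = 0.00433), with means of 75.1 CPM in Wt and 83.4 CPM in Tg7 at 2w and of 8.47 and 33.9 CPM at 12w. For Epas1 it was larger by 1.17 (SE 0.17, adjusted p = 0.00378), with 126 and 148 CPM at 2w and 57.6 and 154 CPM at 12w. For Ang it had the opposite sign at the 2 ages, a difference of -2.21 (SE 0.34, adjusted p = 0.00596), with 21.6 CPM in Wt and 53.1 CPM in Tg7 at 2w and 68.8 and 36.4 CPM at 12w.

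Lpl is listed because every Tg7 library was above every Wt library at 2w (means 187 and 298 CPM in Wt and Tg7) and below at 12w (198 and 107 CPM). The difference between the ages, -1.55 (SE 0.39), did not pass the test (adjusted p = 0.0746).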

How the results depend on the processing

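Pgf at both ages and Angptl2 at 12w passed under every alternative and without any 1 library. Of 694 values of the 10 genes under alternatives, 607 kept direction and side of the threshold, 33 newly passed, 9 no longer passed and 45 turned direction; the cause of these changes was not tested. At 2w 2 of the 10 genes passed, 3 with only those 2 groups fitted, and 4 in each of DESeq2, no filter, a stricter filter (at least 50 counts in 3 libraries), upper-quartile factors and library size alone; leaving out a library gave 1 to 3. At 12w 2 passed, 4 with DESeq2 or library size alone, and 2 to 5 without a library, 5 without replicate 1 of Wt. For the difference between the ages 0 passed, 1 with DESeq2 or no filter, and 0 to 1 without a library. With age in Wt 4 passed, 3 to 6 elsewhere and 3 to 4 without a library, and with age in Tg7 2 passed, 3 with only 2 groups fitted and 1 to 2 without a library.

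By their replicate numbers, Wt and Tg7 libraries of the same age showed no pairing, and pairing across the ages was not checked. In an edgeR fit with the replicate numbers as a block, replicate 4 of Wt at 12w alone took its own level. With this block 4 of the 10 genes passed at 2w and 1 for the difference between the ages, Angptl2 (adjusted p = 0.0427). With age in Tg7 3 passed, Hif1a among them (adjusted p = 0.0221). The difference between the ages turned to 0.16 for Vegfa and 0.047 for Angpt2. The block moved the called genes from 1695 to 2630 at 2w, from 188 to 502 for the difference and from 2524 to 3817 with age in Wt.

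Library size alone shifted the median of all genes by 0.17 at 2w, 0.44 at 12w, 0.27 for the difference, -0.39 with age in Wt and -0.12 with age in Tg7, and the percentage of called genes that were higher from 57.2 to 84.0, 52.7 to 93.5, 73.9 to 93.1, 49.96 to 7.89 and 53.9 to 37.8 in that order. With upper-quartile factors it was 64.7 at 12w, with only 2 groups fitted 38.4 with age in Wt, and for the difference 62.0 with DESeq2 and 56.9 with no filter. Library size alone turned Hif1a at 2w to 0.086, the difference to 0.25 for Vegfa and 0.18 for Angpt2, the age change in Wt to -0.089 for Vegfb, -0.0019 for Vegfc and -0.17 for Angpt1, and that in Tg7 to -0.11 for Vegfb, -0.043 for Pgf and -0.049 for Angptl2. The Vegfa difference was 0.040 with upper-quartile factors, 0.016 with no filter and 0.0017 with the stricter one. Vegfb with age in Tg7 was -5.9e-05 with DESeq2, -0.0022 with upper-quartile factors, -0.0036 with the stricter filter and -0.0067 with only 2 groups fitted.

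Leaving out 1 library at a time, values crossed 0 for Angpt1 (-0.060 to 1.68) and Hif1a (-0.26 to 0.012) at 2w; for the differences of Vegfa (-0.24 to 0.15), Angpt1 (-0.42 to 1.32) and Angpt2 (-0.24 to 0.10); with age in Wt for Vegfa (-0.31 to 0.070), Angpt1 (-0.19 to 1.29) and Hif1a (-0.45 to 0.15); and with age in Tg7 for Vegfb (-0.25 to 0.24), Pgf (-0.0083 to 0.14), Angptl2 (-0.044 to 0.21) and Angptl4 (-0.44 to 0.56). All called genes numbered 754 to 1700 at 2w, 2417 to 4036 at 12w, 82 to 579 for the difference (563 with DESeq2, 347 with library size alone, 420 with no filter), 1336 to 4020 with age in Wt (4120 with library size alone, 1283 with 2 groups) and 1115 to 1708 with age in Tg7 (3441 with 2 groups). Depth limits Angpt1, with 2 to 19 counts per library.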

Other observations

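Markers of the other cell types an islet preparation can hold were counted in the same fits. Of all tested genes, 6.07% were called higher and 4.55% lower in Tg7 at 2w, and 12.5% higher and 11.2% lower at 12w. In Tg7, 8 of 10 β-cell markers were called lower at each age (median log2 fold change -2.06 at 2w and -2.29 at 12w). None of 6 α-cell or 3 δ-cell markers passed at either age, and of 2 pancreatic polypeptide cell markers 1 was higher at 2w and none at 12w. Of 6 ductal markers none passed at 2w and 2 were higher at 12w, where the summed ductal level was 410 to 595 CPM in Wt and 705 to 994 CPM in Tg7. Of 10 macrophage markers 1 was higher at 2w and 1 lower at 12w, and of 4 lymphatic endothelial markers 1 was higher and 1 lower at each age. Of 7 acinar markers 1 was higher at 2w, of 4 Schwann cell markers 1 was higher at 12w, and of 2 adipocyte markers 1 was higher at 12w. Only 1 lymphocyte marker was tested, without passing at either age. These counts rest on few libraries. The Schwann cell call was lost without any 1 of the 6 libraries compared, the adipocyte call without any 1 of 5 of the 6, the acinar call without any 1 of the Wt libraries or replicate 2 of Tg7, the macrophage call at 2w without replicate 1 or 3 of Wt or replicate 1 of Tg7, and both lymphatic calls at 2w without any 1 of the Wt libraries. The pancreatic polypeptide cell call was lost without any 1 of the Wt libraries or replicate 1 or 2 of Tg7, and the lower lymphatic call at 12w without replicate 1 of Wt or 3 of Tg7. The 2 ductal calls became 1 without replicate 4 of Wt or any 1 of the Tg7 libraries, and 5 with library size alone.

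Of the 4 mesothelial genes only Msln was tested, and it was lower in Tg7 at both ages. Its mean was 47.4 CPM over all libraries, against 0.152 CPM for Upk3b and 0.0941 CPM for Wt1, so the summed level of the list is close to that of 1 gene. That sum was 91.7 to 133 CPM in Wt and 28.0 to 37.4 CPM in Tg7 at 2w, and 34.7 to 56.1 CPM in Wt and 1.05 to 1.72 CPM in Tg7 at 12w.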
